A study of Mus musculus with 30 samples.

Results

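Expression of 10 genes of the smooth muscle contractile apparatus was followed in the ventral prostate (VP) of mice fed 3 diets: Acta2, Actg2, Myh11, Tagln, Cnn1, Des, Lmod1, Mylk, Synpo2 and Smtn. They were found by symbol, and all 10 of 10 were present among the 39179 gene identifiers of the count tables. RNA was sequenced from 30 male C57BL/6 mice in 6 groups of 5. The groups received isocaloric, normolipidic growth diets from weaning, with lard (PF), soybean oil (SO) or linseed oil (LO) as the fat source, for 12 or 32 weeks. The labels name no transgene or drug treatment, and no group on a standard chow was analysed here. The RNA came from whole VP tissue, so that fewer muscle cells and less RNA per muscle cell cannot be told apart. Each library was labelled as a separate mouse by a number from 1 to 5 within its group.

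Smooth muscle cells surround the epithelial ducts of the prostate and the walls of its blood vessels, and their contraction helps to expel the secretion. Calcium activates the kinase encoded by Mylk, which phosphorylates myosin light chains and lets the myosin heavy chain encoded by Myh11 pull on actin filaments. The thin filament actins are encoded by Acta2 and Actg2, and Lmod1 encodes leiomodin, which nucleates actin filaments. Tagln, Cnn1 and Smtn encode the actin-binding proteins transgelin, calponin and smoothelin. Des encodes desmin, the muscle intermediate filament protein, and Synpo2 encodes an actin-binding protein of muscle attachment structures. Many of these genes are known targets of serum response factor and its coactivator myocardin, which act through a DNA element called the CArG box.

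The sequence in front of Acta2 is shown because Acta2 is a well-known target of these factors. In RefSeq, 7 of the 10 genes had a promoter in the mouse table, and Actg2, Myh11 and Tagln did not match. The 250 bases before the RefSeq start were searched on both strands for the CArG box, and for CArG-like elements in which 1 letter of the A and T core is C or G. RefSeq starts can differ from the GENCODE M21 gene bounds given below. The Mylk and Smtn windows lie wholly inside those bounds, and the Acta2, Cnn1 and Lmod1 windows partly. Sequence before the GENCODE starts was not searched separately. The Acta2 window lies at chr19:34255374-34255623 on the minus strand of GRCm38.p6, and the capitals mark its CArG-like elements, which begin 84 and 34 bases before the start and do not overlap.
Acta2 promoter: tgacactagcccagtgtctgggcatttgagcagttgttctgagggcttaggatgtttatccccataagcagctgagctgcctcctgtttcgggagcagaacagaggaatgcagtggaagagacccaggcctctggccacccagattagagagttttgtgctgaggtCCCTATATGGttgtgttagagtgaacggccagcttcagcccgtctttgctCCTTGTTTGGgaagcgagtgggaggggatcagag
None of the 7 windows held a strict CArG box and 1 held a CArG-like element. Among the 32851 promoters of the table, 1.47% held a CArG box and 8.59% held either kind in a window of the same length.

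On GRCm38, with GENCODE M21, the actin genes Acta2 (ENSMUSG00000035783) and Actg2 (ENSMUSG00000059430) lie at chr19:34241090-34255590 and chr6:83512905-83536265, both on the minus strand. Lmod1 (ENSMUSG00000048096) lies at chr1:135324807-135368065 on the plus strand. The motor genes Myh11 (ENSMUSG00000018830) and Mylk (ENSMUSG00000022836) share a chromosome, at chr16:14194535-14291372 on the minus strand and chr16:34745210-35002420 on the plus strand. So do Tagln (ENSMUSG00000032085), at chr9:45929619-45936058 on the minus strand, and Cnn1 (ENSMUSG00000001349), at chr9:22099216-22109630 on the plus strand. Smtn (ENSMUSG00000020439) lies at chr11:3517523-3540612 on the minus strand, Des (ENSMUSG00000026208) at chr1:75360329-75368579 on the plus strand and Synpo2 (ENSMUSG00000050315) at chr3:123076519-123236149 on the minus strand. The counts of each gene cover its exons, from 1557 bases in Actg2 to 13089 in Synpo2.

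Each library held between 27590631 and 41301707 counts on genes, and the members were deeply counted, from 783 counts for Lmod1 to 43705 for Acta2 in a single mouse. Expression is given as CPM, counts relative to the size of the library, after the library sizes were scaled by the trimmed mean of M-values (TMM). The mice numbered 1 stood apart in all 6 groups. Across 16428 genes with a known GC content, the deviation of a mouse from its group mean correlated with GC content at r = 0.283 to 0.451 in the mice numbered 1 and at -0.407 to 0.219 in mice 2 to 5. The labels do not say whether the number marks a batch. Several results are therefore also given without these 6 mice. For others only single mice were left out, or all mice were kept.

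Markers of the prostate were abundant, led by Pbsn, the androgen-regulated probasin, at 3469 CPM on average. The 6 seminal vesicle secretory genes summed to at most 0.306 CPM in any mouse, and Svs3a, Svs4 and Svs6 stayed under 0.1 CPM in every mouse. The 10 smooth muscle genes summed to between 2167 and 4189 CPM. The 13 striated muscle markers, led by Acta1, summed to between 60.3 and 820.2 CPM. At 12 weeks they stayed between 85.7 and 205.8 in every mouse, and at 32 weeks they ran from 89.3 to 820.2 in LO, 75.5 to 472 in SO and 60.3 to 708 in PF. No gene of this list was called by edgeR in any comparison. Between 12 and 32 weeks, 10 of 13 in LO, 6 of 13 in SO and 2 of 13 in PF had an unadjusted p-value under 0.05. The shares of all genes were 20.5%, 19.7% and 10.2%. DESeq2 called 1 in LO, Mb, and 1 in SO, Actn3. Des is also expressed in striated muscle, and the part of that tissue in its values was not tested.

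Acta2 was the most expressed of the 10 genes per length, at 392 ± 58.7 CPM per kb of exons (SD, n = 30), and ranked 60 among all genes. Tagln followed at 356 ± 59.8 CPM per kb, below Acta2 in 29 of 30 mice. Myh11 came next at 88.1 ± 16.8 CPM per kb, below Tagln in 30 of 30 mice. Cnn1 at 62.1 ± 16.3, Actg2 at 54.3 ± 10.6 and Des at 51.3 ± 17.2 CPM per kb lay within 1 SD of each other. Cnn1 exceeded Actg2 in 23 mice and Actg2 exceeded Des in 23 mice. Mylk stood at 21.4 ± 2.53 CPM per kb. Tagln and Mylk varied least, with 1.75-fold and 1.83-fold ranges over the 30 mice. Smtn reached 11.1 ± 4.27, Lmod1 8.62 ± 1.56 and Synpo2 3.77 ± 0.841 CPM per kb. Smtn exceeded Lmod1 in 25 of 30 mice, and Lmod1 exceeded Synpo2 in 30 of 30. Smtn had the widest range, 3.1-fold between its lowest and highest mouse.

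**Figure D1:**
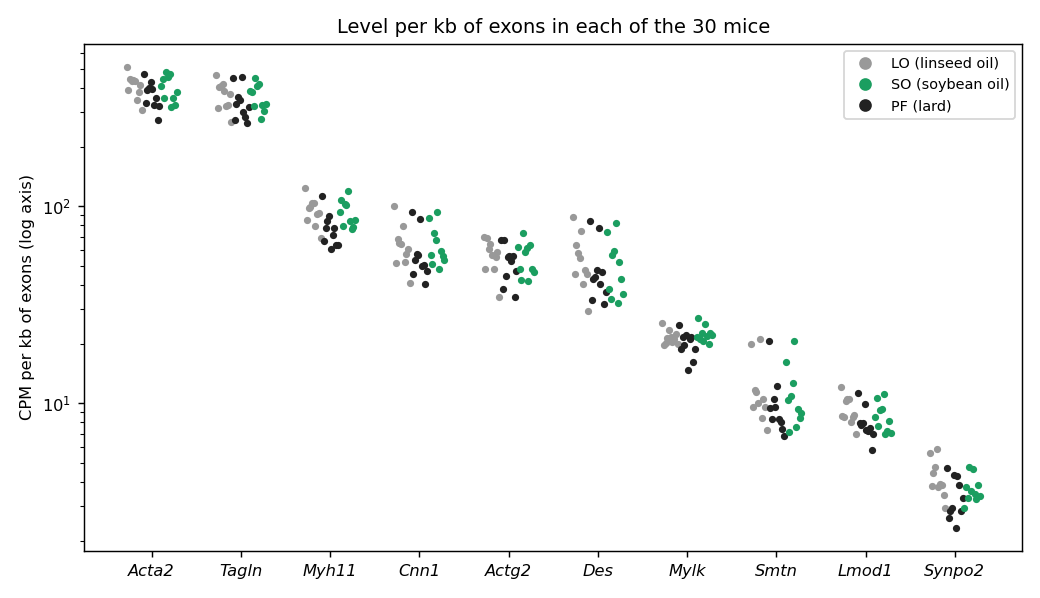
CPM per kb of exons (log axis) of the 10 genes, ordered by mean, with 1 point for each of the 30 mice coloured by diet. The actin gene Acta2 (392 on average) and Tagln (356) lie above the others, and Synpo2 (3.77) lies lowest.

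The spread between mice of a group was wide for several members. Des, the intermediate filament gene, stood at 232 ± 60.7 CPM (SD, n = 5) in LO, 197 ± 62.0 in SO and 189 ± 73.7 in PF at 12 weeks. At 32 weeks it stood at 179 ± 63.8 in LO, 184 ± 75.5 in SO and 175 ± 68.7 in PF, so the SD was larger than any difference between the group means. The calponin gene Cnn1 stood at 191 ± 49.6 CPM in LO, 184 ± 38.7 in SO and 168 ± 51.1 in PF at 12 weeks, and at 158 ± 38.8, 169 ± 48.8 and 150 ± 49.7 at 32 weeks. For these genes the highest mouse of every group was mouse 1.

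Actg2, which encodes the gamma actin of visceral smooth muscle, stood at 97.2 ± 14.0 CPM in LO, 88.6 ± 18.8 in SO and 84.9 ± 20.9 in PF at 12 weeks. At 32 weeks its means were 78.8, 81.4 and 76.6 CPM in LO, SO and PF, with single mice from 53.7 to 99.2, and the ranges of all 6 groups overlapped. Tagln stood at 798 ± 105 CPM in LO, 774 ± 88.5 in SO and 701 ± 125 in PF at 12 weeks, and at 667 ± 92.6, 659 ± 103 and 645 ± 151 at 32 weeks. The PF mean of Tagln at 32 weeks held 1 mouse at 906 CPM and 4 mice between 524 and 634.

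**Figure D2:**
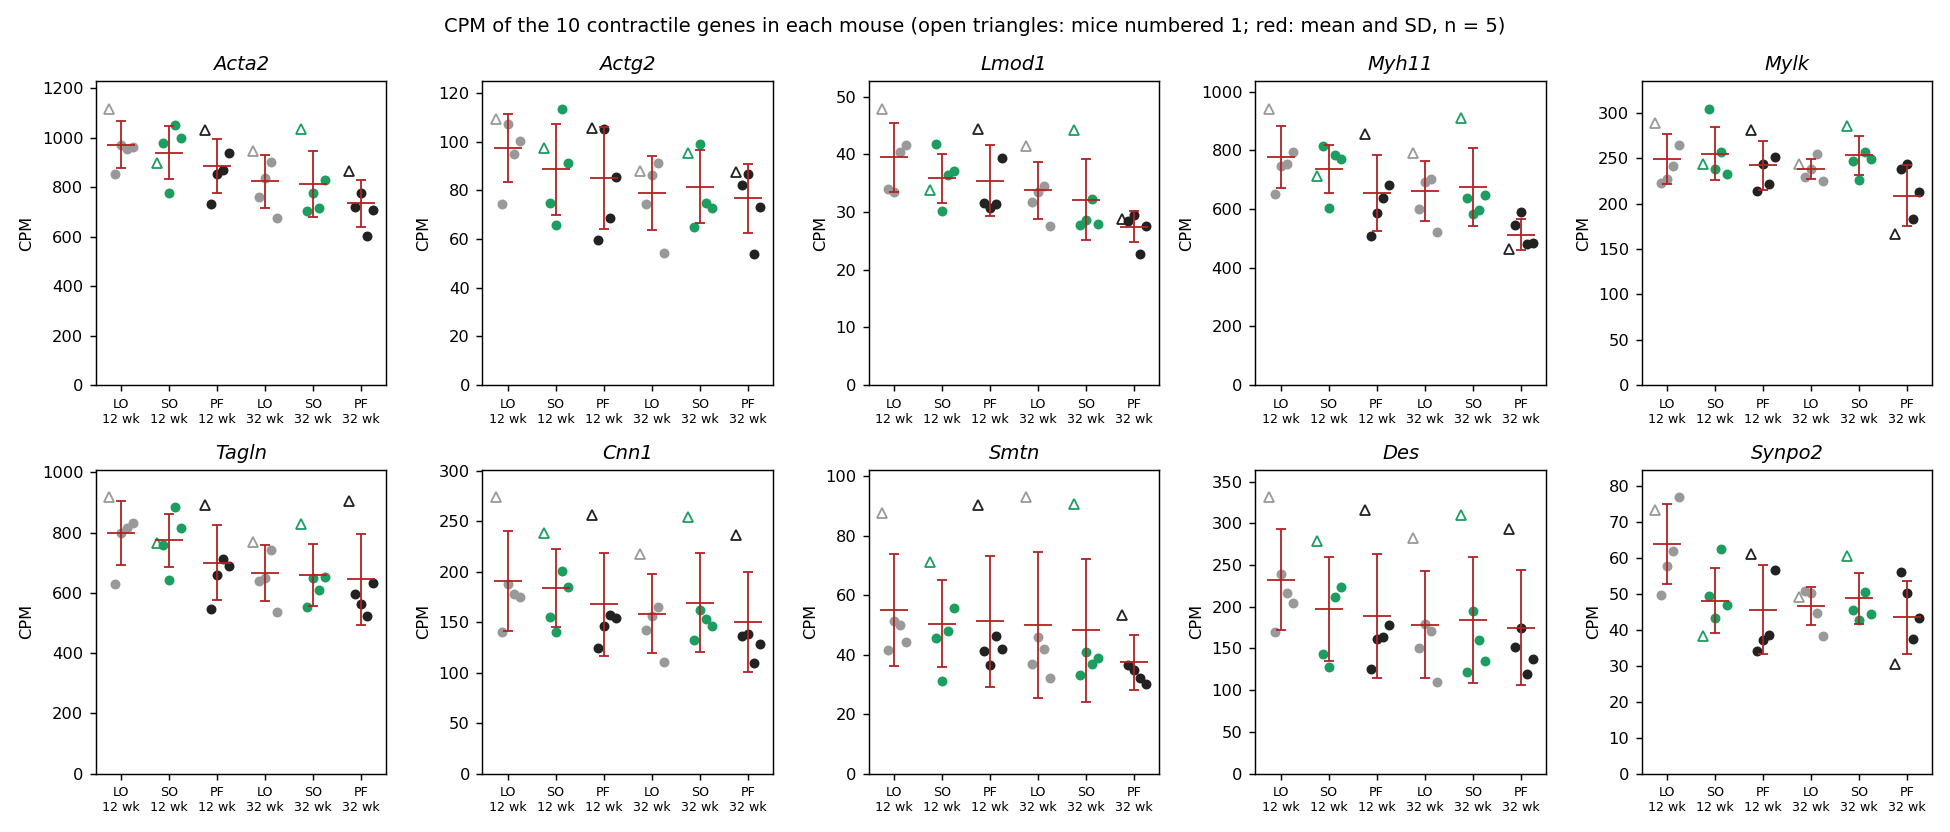
CPM of each gene in each mouse, by diet and time, with the mean and SD of 5 mice in red. Open triangles are the mice numbered 1, which lie highest in all 6 groups for Cnn1, Des and Smtn.

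At 12 weeks no member differed between the diets at an adjusted p-value under 0.05. This was 0 of 10 in each of the 3 comparisons by edgeR's quasi-likelihood test, against 0% of 15873 genes tested. The same counts by the DESeq2 Wald test were 0 of 10. Over all genes it called 225 of 17232 for PF against SO, 75 of 14379 for PF against LO and 0 of 25367 for LO against SO. At an unadjusted p-value under 0.05, the counts were 0 of 10 for PF against SO, 1 for PF against LO and 1 for LO against SO. Leaving out 1 mouse at a time, they ran from 0 to 1, from 1 to 5 and from 0 to 1. The background shares at that threshold were 7.99%, 9.24% and 4.28% of all genes. In no comparison at 12 weeks did the 5 values of one diet lie wholly above or below those of another for any member, while 1.57%, 1.59% and 0.731% of all genes did so.

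Synpo2 was the member farthest from 0 at 12 weeks. Its CPM in mice 1 to 5 was 73.2, 49.5, 57.8, 61.8 and 76.8 in LO, 61.2, 34.2, 37.2, 38.6 and 56.7 in PF, and 38.3, 49.4, 43.2, 62.4 and 47.0 in SO. Mice 1 and 5 were the highest of both LO and PF, and the ranges of all 3 diets overlapped. The log2 fold change of PF against LO was -0.48 for Synpo2 (SE 0.18, n = 5 against 5, adjusted p-value 0.468 by edgeR). For LO against SO it was 0.41 (SE 0.18), with an adjusted p-value of 0.999 by edgeR. Without the mice numbered 1 these log2 fold changes were -0.56 and 0.29.

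The direction at 12 weeks was shared by most members when PF was the diet compared. All 10 members were lower in PF than in LO, with a median log2 fold change of -0.18, where 50.1% of all genes were lower. The median was -0.32 without PF mouse 1 and -0.10 without PF mouse 2, and 8 of 10 were lower without LO mouse 1. Of the 10 members, 9 were lower in PF than in SO, with a median of -0.07, where 55.2% of all genes were lower. The count was 7 of 10 on total counts without TMM and 5 of 10 without PF mouse 2. The median was -0.22 without PF mouse 1 and -0.01 without PF mouse 2. The member farthest from 0 there was Myh11 at -0.17 (SE 0.13), with an adjusted p-value of 0.953 by edgeR. For Myh11 this was -0.28 without PF mouse 1, -0.09 without PF mouse 2 and -0.29 without the mice numbered 1 (unadjusted p-value 0.0214, adjusted 0.550 by edgeR). For LO against SO, 9 members were higher, with a median of 0.10, while 6 were higher without the mice numbered 1, and 5 without SO mouse 3. The median was 0.004 without LO mouse 1. The same PF, LO or SO mice enter 2 of the 3 comparisons, so these counts do not stand apart from each other. The 95% intervals of the members ran from -0.85 to 0.78 over the 3 comparisons. In the same mice the sum of the 5 leukocyte markers ran from 26.9 to 66.8 CPM in PF, 17.0 to 24.9 in SO and 19.2 to 46.7 in LO, so the PF and SO ranges did not overlap. For PF against SO, 4 of 5 of them had an unadjusted p-value under 0.05, where 7.99% of all genes did. Their median log2 fold change was 1.01, and edgeR called 0 and DESeq2 3. All 5 were also higher in PF than in LO, with a median of 0.65, and both tools called 0. Of the 6 endothelial markers, all were higher in PF than in SO, with sums of 53.0 to 78.4 against 44.7 to 56.6 CPM and a median of 0.35. Of these, 4 had an unadjusted p-value under 0.05, while both tools called 0. All 6 fibroblast markers were higher in PF than in SO (median 0.39) and than in LO (median 0.41). In each comparison 2 had an unadjusted p-value under 0.05, and both tools called 0. The part of these markers in the members' values was not tested.

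At 32 weeks the count of members called was again 0 of 10 in each comparison, against 0% of 16218 genes by edgeR, and 0 of 10 by DESeq2. Over all genes DESeq2 called 109 of 15020 for PF against SO, 85 of 14539 for PF against LO and 6 of 25678 for LO against SO. With an unadjusted p-value under 0.05, 2 members stood out for PF against SO, Myh11 and Mylk, where the background was 10.8% of all genes. There was 1 for PF against LO, Myh11, where it was 8.6%. There was none for LO against SO, where it was 3.48%. Leaving out 1 mouse at a time gave 1 to 2, 0 to 2 and 0 such members. The ranges of 2 diets overlapped for every member in each comparison, while 2.18%, 1.13% and 0.641% of all genes did not overlap.

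Myh11, the smooth muscle myosin heavy chain, had CPM values of 462, 545, 590.0, 482 and 485 in PF mice 1 to 5. In SO they were 911, 637, 585, 596 and 648, and in LO 790.3, 600.5, 691, 702 and 522. The PF values lay at the low end, with 4 of 5 below every SO mouse, and PF mouse 3 lay inside the range of both other diets. For Myh11 the estimate for PF against SO was -0.38 on the log2 scale (SE 0.14, adjusted p-value 0.390 by edgeR). For PF against LO it was -0.36 (SE 0.14, adjusted p-value 0.487 by edgeR). SO mouse 1 was the highest of all 15, and without it the PF against SO value was -0.24. Without the mice numbered 1 the values were -0.22 against SO and -0.25 against LO.

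Mylk, the kinase of the myosin light chains, had CPM values of 166, 238, 243, 182 and 213 in PF, 285, 247, 226, 257 and 249 in SO, and 243, 229, 238, 254 and 225 in LO at 32 weeks. Of the 5 PF mice, 3 lay below every SO and LO mouse, and the other two lay inside both ranges. The log2 fold change of PF against SO was -0.26 (SE 0.10, adjusted p-value 0.392 by edgeR), and -0.15 without the mice numbered 1.

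Smtn gave the largest difference of PF against LO at 32 weeks and also the one with the widest error. Its CPM was 53.3, 36.6, 35.0, 32.3 and 29.99 in PF, 92.8, 36.8, 46.0, 41.8 and 32.1 in LO, and 90.7, 33.2, 41.0, 36.9 and 38.9 in SO mice 1 to 5. Mouse 1 was the highest of each diet, and mice 2 to 5 of the 3 diets overlapped. The log2 fold change of PF against LO was -0.40 (SE 0.33, adjusted p-value 0.759 by edgeR). It was -0.04 without LO mouse 1 and -0.22 without all mice numbered 1.

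All 10 members were lower in PF than in SO at 32 weeks, with a median log2 fold change of -0.15, where 50.7% of all genes were lower. Without SO mouse 1 the count was 5 of 10 and the median -0.01, and without PF mouse 1 the median was -0.22. All 10 were lower in PF than in LO, with a median of -0.12, where 48.8% of all genes were lower, and 6 were lower without LO mouse 1, with a median of -0.05. Without PF mouse 1 that median was -0.27. For LO against SO, 6 members were lower and 4 higher, with a median of -0.03 that turned to 0.01 on total counts and to 0.12 without SO mouse 1. The member farthest from 0 was Cnn1 at -0.09 (SE 0.24, adjusted p-value 0.9997 by edgeR). The 95% intervals of the members ran from -1.10 to 0.76. The sum of the 5 adipocyte markers ran from 47.9 to 538 CPM in PF, 27.6 to 218 in SO and 44.8 to 275 in LO at 32 weeks. For PF against SO their median log2 fold change was 1.84, with 4 of 5 higher. Before adjustment 3 had a p-value under 0.05 by edgeR, where 10.8% of all genes did, while edgeR and DESeq2 called 0. Their part in the members' values was not tested.

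**Figure D3:**
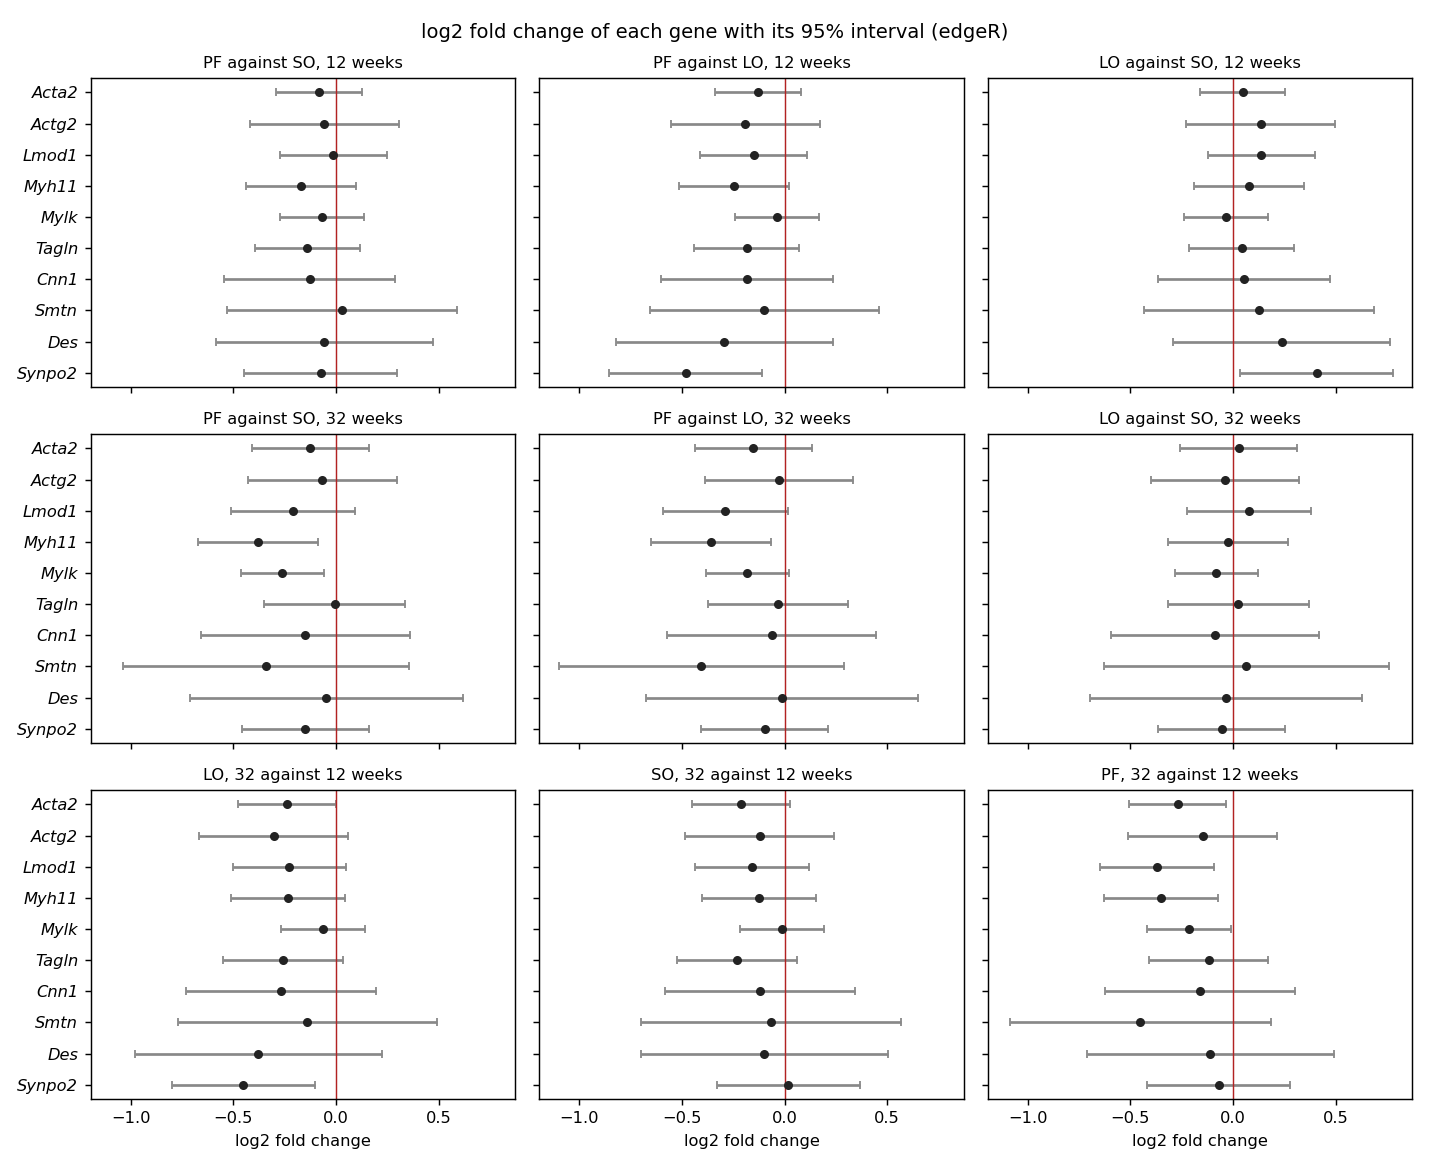
log2 fold change of each gene with its 95% interval for the 6 diet comparisons and the 3 comparisons of 32 with 12 weeks, from edgeR. Most points lie below 0 for PF and for 32 weeks, intervals are widest for Smtn and Des, and none of the 10 genes passed the threshold after adjustment.

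Between 12 and 32 weeks no member changed at an adjusted p-value under 0.05 in any diet. This was 0 of 10 against 2.7% of 16605 genes in LO, 6.46% in SO and 0.0301% in PF, by edgeR, and 0 of 10 in each diet by DESeq2. Over all genes DESeq2 called 1089 of 16600 in LO, 1494 of 18612 in SO and 52 of 17607 in PF. With an unadjusted p-value under 0.05, LO had 2 members, Acta2 and Synpo2, where the background was 20.5%. There was none in SO, where it was 19.7%, and there were 4 in PF, Acta2, Myh11, Lmod1 and Mylk, where it was 10.2%. Leaving out 1 mouse at a time gave 0 to 3 such members in LO, 0 to 3 in SO and 0 to 4 in PF.

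Lmod1, the actin nucleator, was the only member whose 2 ranges did not overlap in any comparison of groups. In PF mice 1 to 5 its CPM was 44.4, 31.5, 30.7, 31.3 and 39.3 at 12 weeks and 28.8, 28.4, 29.4, 22.8 and 27.6 at 32 weeks. The highest value at 32 weeks, 29.4, lay close to the lowest at 12 weeks, 30.7. The log2 fold change was -0.37 (SE 0.13, adjusted p-value 0.362 by edgeR), and -0.28 without the mice numbered 1. Lmod1 was thus 1 of 10 members without overlap in PF, where 1.55% of all genes did not overlap. In LO and SO no member met that criterion, while 4.25% and 7.43% of all genes did.

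The ranges of the other members overlapped in PF. Myh11 had 855, 507, 588, 638 and 682 CPM in PF at 12 weeks, and its values at 32 weeks are given above. Its log2 fold change was -0.35 (SE 0.14, adjusted p-value 0.375 by edgeR), -0.23 without mouse 1 of 12 weeks and -0.19 without the mice numbered 1. Acta2, the smooth muscle actin, had 1031, 734, 854, 871 and 938 CPM in PF at 12 weeks and 865, 719.7, 777, 603 and 708 at 32 weeks. Its ranges overlapped, and the log2 fold change was -0.27 (SE 0.12, adjusted p-value 0.429 by edgeR). Mylk gave -0.22 (SE 0.10, adjusted p-value 0.468 by edgeR), -0.13 without mouse 1 of 32 weeks and -0.07 without the mice numbered 1. Smtn gave -0.45 (SE 0.31, adjusted p-value 0.647 by edgeR). For Smtn this was -0.14 without PF mouse 1 of 12 weeks and -0.60 without PF mouse 1 of 32 weeks. Without the mice numbered 1 it was -0.30 (unadjusted p-value 0.039, adjusted 0.331 by edgeR).

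In LO, Acta2 had 1118, 855, 971, 955 and 962 CPM at 12 weeks and 945, 759.8, 839, 901 and 676 at 32 weeks. Of the 5 mice at 32 weeks, 3 lay below every mouse at 12 weeks. The log2 fold change was -0.24 (SE 0.12, adjusted p-value 0.242 by edgeR), and it was -0.15 without mouse 5 of 32 weeks and -0.07 on total counts. Synpo2 in LO had 49.1, 50.7, 50.4, 44.7 and 38.4 CPM at 32 weeks, against the 12-week values given above, with an overlap of 1 mouse at 12 weeks. Its log2 fold change was -0.45 (SE 0.17, adjusted p-value 0.123 by edgeR), and -0.28 on total counts. In SO the member farthest from 0 was Tagln, with 765, 760.4, 644, 886 and 815 CPM at 12 weeks and 829.8, 554, 650.2, 608 and 654 at 32 weeks. Its log2 fold change was -0.23 (SE 0.14, adjusted p-value 0.386 by edgeR). For Tagln it was -0.04 on total counts and -0.32 without the mice numbered 1 (adjusted p-value 0.0743 by edgeR).

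With TMM, the estimates at 32 weeks were lower for 10 of 10 members in LO, with a median of -0.25, for 9 of 10 in SO, with a median of -0.12, and for 10 of 10 in PF, with a median of -0.19. Leaving out 1 mouse, the median ran from -0.31 (without mouse 1 of 32 weeks) to -0.15 (without mouse 5 of 32 weeks) in LO. In SO it ran from -0.30 (without mouse 1 of 32 weeks) to -0.05 (without mouse 2 of 32 weeks), and in PF from -0.31 (without mouse 1 of 32 weeks) to -0.10 (without mouse 1 of 12 weeks). The counts then went down to 8 in LO and 7 in SO and PF. Of all genes, 52.2%, 50.8% and 49.3% were lower in these comparisons with all mice. Without TMM, on total counts, 8 of 10 members were lower in LO, 2 of 10 in SO and 10 of 10 in PF. That scaling moved the median of all genes from -0.01 to 0.16 in LO and from -0.004 to 0.19 in SO. It also moved it from -0.003 to -0.15 for PF against SO and from 0.01 to -0.17 for PF against LO at 32 weeks, relative to which the members' medians were -0.14 and -0.12. Relative to the median of all genes on total counts, the median of the members was -0.24 in LO, -0.11 in SO and -0.20 in PF.

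A correction of each library for GC content, chosen after the data were examined, was the setting under which members were called. It gave 3 of 10 in LO between 12 and 32 weeks, where it also called 20.6% of 16428 genes. Acta2 fell by 0.40 (adjusted p-value 0.0414 by edgeR), Lmod1 by 0.32 (adjusted p-value 0.0475) and Synpo2 by 0.61 (adjusted p-value 0.0168) on the log2 scale. No member was called under it in the other 11 comparisons. Markers of other cell types moved over the same interval. The 5 leukocyte markers all rose in SO, from a sum of 17.0 to 24.9 CPM at 12 weeks to 31.8 to 125.1 CPM at 32 weeks, led by Ptprc, whose log2 fold change was 1.85 with an SE of 0.37 (adjusted p-value 0.00501 by edgeR). Of 4 basal epithelial markers, whose sum ran from 67.4 to 125.7 CPM at 12 weeks and from 130.5 to 239.8 CPM at 32 weeks in LO, Krt15, Krt5 and Trp63 rose there, Krt15 by 1.24 (SE 0.18, adjusted p-value 0.00464 by edgeR), and Krt15 and Trp63 rose in SO too. In SO the endothelial marker Emcn also rose by 0.84 (SE 0.20, adjusted p-value 0.0114 by edgeR). Upk1a, from the urothelial list, fell there by 0.80 (SE 0.17, adjusted p-value 0.00755 by edgeR). Upk1a stood at 376 CPM on average, while Upk3a of that list stayed under 0.1 CPM in every mouse. The cell source of Upk1a was not tested. No fibroblast, pericyte, adipocyte or luminal marker was called by edgeR, while DESeq2 called the fibroblast markers Dcn and Lum in LO. The part of a changed cell composition in the members' values was not tested.

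Whether a diet difference changed between 12 and 32 weeks was tested as an interaction. No member was called for PF-SO, PF-LO or LO-SO, against 0% of 16605 genes in each, by edgeR. With all mice, none had an unadjusted p-value under 0.05 in any of these, and DESeq2 also called none. Over all genes DESeq2 called 44 of 19622 for PF-SO, 12 of 17104 for PF-LO and 0 of 26704 for LO-SO. Smtn was farthest from 0 for PF-SO at -0.39 (SE 0.44, adjusted p-value 0.862 by edgeR), and it was at -0.03 without SO mouse 1 of 32 weeks and -0.04 without the mice numbered 1. Synpo2 was farthest for PF-LO at 0.38 (SE 0.24, adjusted p-value 0.737 by edgeR) and for LO-SO at -0.47 (SE 0.24, adjusted p-value 0.9998 by edgeR). Without the mice numbered 1 these were 0.58, with an unadjusted p-value of 0.0187 and an adjusted one of 0.475 by edgeR, and -0.27. The intervals of the members ran from -1.28 to 1.12, which is wide against the estimates.

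Cnn1, Des and Smtn were higher in mouse 1 than in mice 2 to 5 of the same group in 6 of 6 groups. Over all genes, 8.18% of 16605 shared that pattern. The Des values of the mice numbered 1 lay between 279 and 331 CPM and those of mice 2 to 5 between 110.3 and 239. For Smtn they lay between 53.3 and 92.8 against 29.99 and 55.6 CPM, and for Cnn1 between 217 and 274 against 109.9 and 200.5. Mouse 1 exceeded the mean of the others in its group by a median ratio of 2.03 for Smtn, 1.93 for Des and 1.66 for Cnn1. Acta2 and Tagln were highest in mouse 1 in 5 groups, Myh11 and Lmod1 in 4, Actg2 and Mylk in 3 and Synpo2 in 2, with median ratios between 1.1 and 1.29. Mouse 1 was the lowest of its group for Myh11, Mylk and Synpo2 in PF at 32 weeks and for Synpo2 in SO at 12 weeks.

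The GC content of the members ran from 47.8% in Synpo2 to 60.1% in Smtn. Averaged over the groups, mouse 1 minus the mean of mice 2 to 5 was 0.99 on the log2 scale for Smtn, where the median of all genes in the same GC bin (10 bins of equal gene number) was 0.606. It was 0.90 for Des, at 56.5% GC and against 0.291, and 0.72 for Cnn1, at 51.4% and against 0.0224. The same difference was 0.06 for Mylk at 53.6% and 0.06 for Synpo2. Genes of close GC content therefore differed: Mylk lay below the median of its bin, 0.125, and Tagln, Actg2 and Myh11 at 52.5% to 53.1% lay at 0.26 to 0.34 against 0.0224.

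**Figure D4:**
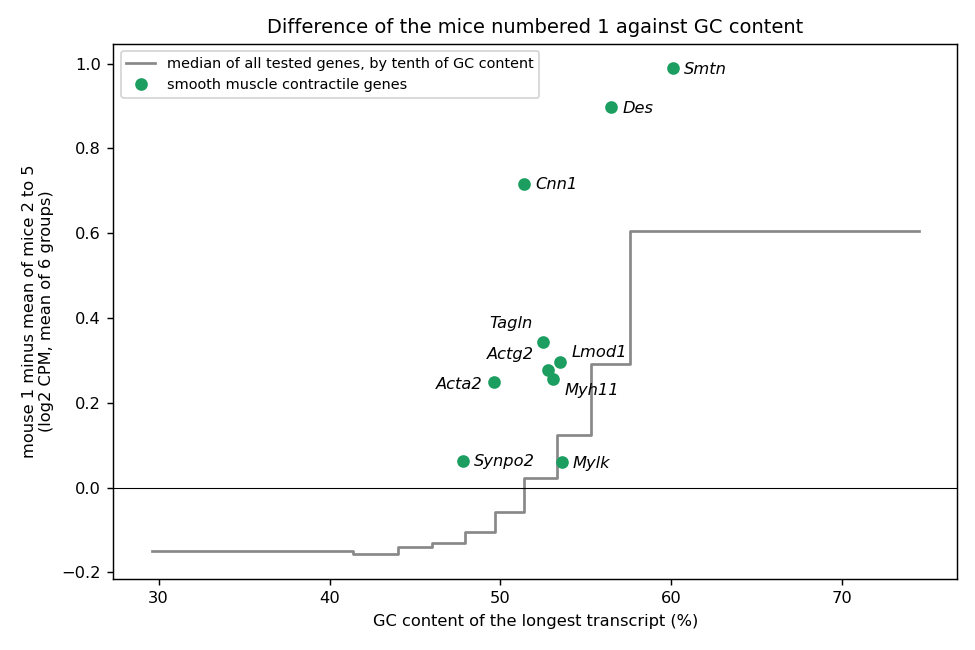
Mean over the 6 groups of the log2 CPM of mouse 1 minus the mean of mice 2 to 5, against the GC content of the longest transcript. The grey steps are the medians of all tested genes in 10 bins of GC content, from -0.158 at the lowest to 0.606 in the highest bin, and Smtn, Des and Cnn1 lie above their bins at 0.99, 0.90 and 0.72.

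Within groups the members varied together. Over the 45 pairs of members, Pearson's r of the deviations from the group mean in log2 CPM ranged from 0.201 to 0.976 with a median of 0.729 in 30 mice. Without the mice numbered 1, in 24 mice, the range was 0.120 to 0.935 and the median 0.658. Cnn1 and Des formed the closest pair and Des and Mylk the most distant one in 30 mice. Compared with the mean of the other members, Acta2 at 0.916 and Cnn1 at 0.911 followed the rest most closely and Mylk at 0.462 and Synpo2 at 0.501 least in 30 mice. In the 24 mice, Cnn1 at 0.933 and Acta2 at 0.921 led, and Mylk at 0.507 and Smtn at 0.666 came last, with Synpo2 at 0.688. These values are descriptions over mice, and the genes of 1 mouse share its library depth, GC effect and tissue sample.

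**Figure D5:**
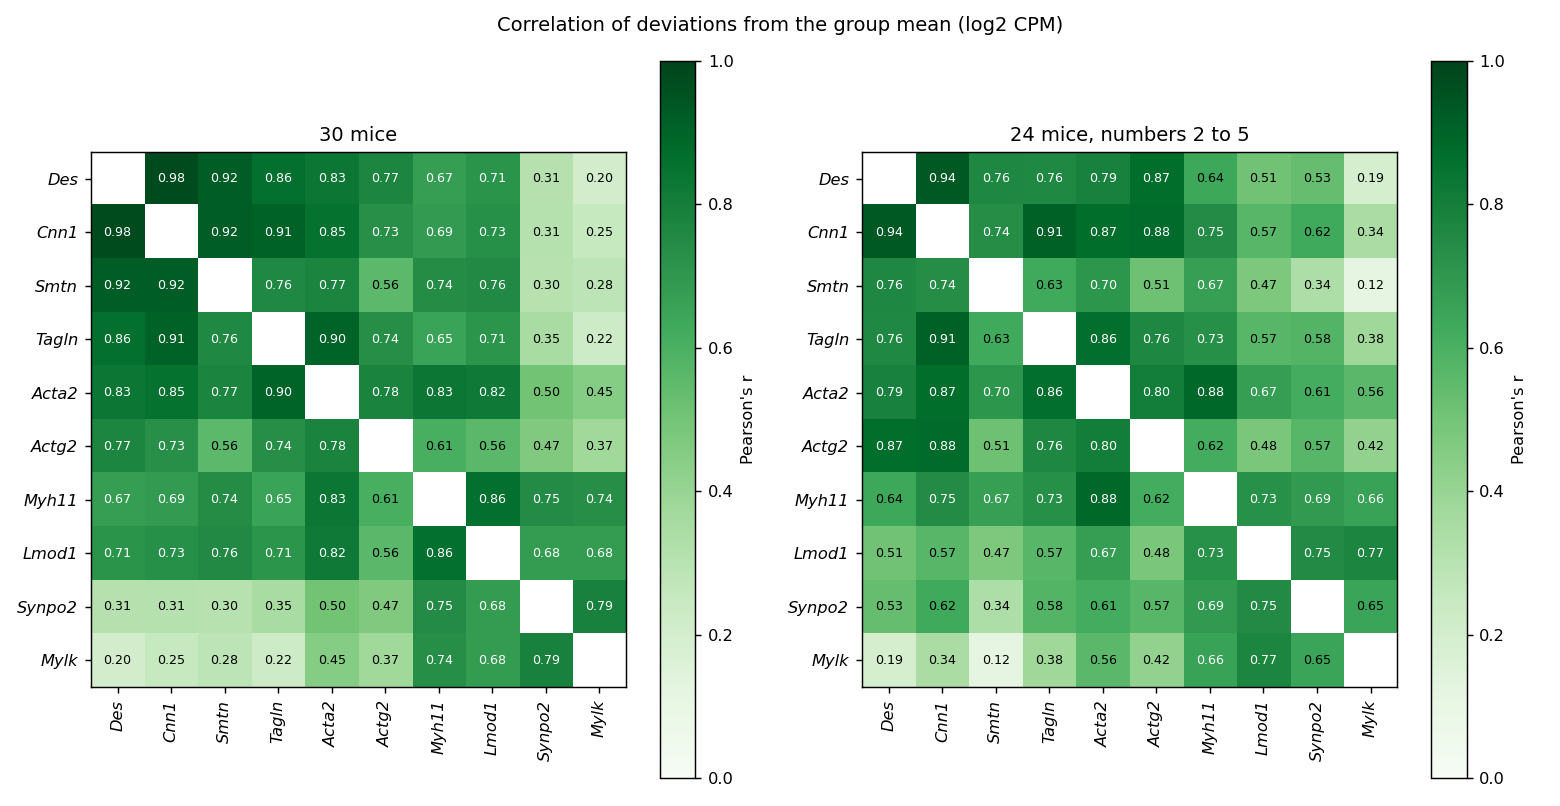
Pearson's r between members for deviations from the group mean in log2 CPM, in all 30 mice and in the 24 mice numbered 2 to 5. Cnn1 and Des are the closest pair in both panels (0.976 and 0.935), and Mylk has the palest cells.

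The 10 genes whose deviations were most like the mean of the members were Jph2 (r = 0.954), Tgfb1i1 (0.953), Pdlim7 (0.935), Rilpl1 (0.912), Myl9 (0.910), Pdlim3 (0.905), Mtss1l (0.902), Gpsm1 (0.902), Kank2 (0.901) and Dbn1 (0.900) over 30 mice. Myl9 encodes the regulatory light chain of smooth muscle myosin, and Jph2 encodes junctophilin, which links the plasma membrane to the calcium store. Without the mice numbered 1 the r of these 10 genes ran from 0.728 to 0.899. Lists of genes were compared with the members by their mean log2 CPM, as deviations from the group mean over 30 mice. For 22 other contractile and cytoskeletal genes r was 0.940. Of the cell type markers, those of pericyte (0.614), nerve (0.566), urothelial (0.443), basal (0.436), luminal (0.431) and fibroblast (0.312) followed. The striated muscle (0.192), adipocyte (0.081), endothelial (0.048) and leukocyte (-0.217) markers were lower.

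The wider contractile apparatus was described by lists that do not hold the members. Of 22 other contractile and cytoskeletal genes, 0 were called between diets by edgeR or DESeq2. At most 5 had an unadjusted p-value under 0.05 by edgeR, for PF against LO at 12 weeks and PF against SO at 32 weeks. The shares of all genes there were 9.24% and 10.8%. For PF against SO at 32 weeks, 21 of 22 were lower with a median of -0.14, where 50.7% of all genes were lower. These genes varied with the members in the same mice (r = 0.940), so this count does not stand apart from the members' count. It was not recomputed without SO mouse 1. Synm, which encodes the intermediate filament protein synemin, was the 1 gene called by edgeR between time points, falling in LO by 0.51 (SE 0.14, adjusted p-value 0.0411 by edgeR). In that comparison edgeR called 2.7% of all genes, and DESeq2 called 2 of the 22. For PF against SO at 32 weeks the smallest unadjusted p-values were those of the integrin gene Itga8 at -0.43 (SE 0.12) and of Pgm5 at -0.41 (SE 0.12), with adjusted p-values of 0.304 and 0.349 by edgeR. In PF between 12 and 32 weeks they were those of the filamin gene Flna at -0.45 (SE 0.13) and the actinin gene Actn1 at -0.32 (SE 0.09), with adjusted p-values of 0.240 and 0.257 by edgeR.

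Of 18 genes of calcium and kinase signalling, 0 were called in any comparison by edgeR or DESeq2. At most 3 had an unadjusted p-value under 0.05 by edgeR. This was for PF against LO at 12 weeks, PF against SO at 32 weeks and LO between time points. The shares of all genes there were 9.24%, 10.8% and 20.5%. The calcium channel gene Cacna1c gave -0.71 (SE 0.23, adjusted p-value 0.362 by edgeR) for PF against SO at 32 weeks, and the myosin phosphatase subunit gene Ppp1r12b gave -0.29 (SE 0.09, adjusted p-value 0.395 by edgeR) for PF against LO at 12 weeks. Among the receptor genes, the contracting alpha-1A adrenoceptor gene Adra1a gave -0.52 (SE 0.17, adjusted p-value 0.362 by edgeR) for PF against SO at 32 weeks. Of 9 transcriptional regulators, edgeR called 1: Mef2c rose in SO between 12 and 32 weeks by 1.07 (SE 0.31, adjusted p-value 0.0350 by edgeR). There 6.46% of all genes were called, including all 5 leukocyte markers and the endothelial marker Emcn. The cell source of the Mef2c rise was not tested. DESeq2 called 1 of the 9 in SO and 1 in LO over this interval. In PF over the same interval, 5 of the 9 regulators were higher and 4 lower, with a median of 0.11. Mrtfa had the smallest unadjusted p-value there, and the coactivator gene Myocd came next at -0.39 (SE 0.22, adjusted p-value 0.562 by edgeR). For PF against SO at 12 weeks, 7 of 9 were higher and 2 lower, with a median of 0.48. Of these 9, 3 had an unadjusted p-value under 0.05, against 7.99% of all genes, and edgeR called 0.

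Of the 10 members, Tagln, Smtn, Des and Mylk share exon bases with a gene on the opposite strand in the annotation. Tagln shares 1241 of its 1988 exon bases with an antisense gene that is not in the count tables and 108 with Pcsk7, and Smtn shares 714 of 4380 with Gm11946. The strand setting of the counting is not given in the sources used here, so reads of these overlapping stretches cannot be assigned with certainty.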

How the data were processed

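RNA from the VP of 30 mice was sequenced from stranded, paired-end mRNA libraries. The submitters' processing notes name TopHat2, HTSeq and DESeq2 and the build GRCm38.p6; the annotation release and strand setting are not given in the sources used here. The authors deposited raw counts of read pairs per gene, 1 table per mouse, without normalization. HTSeq's summary lines, left out of library sizes, held 6.67% to 12.2% of pairs without a gene, 0.831% to 1.18% ambiguous and 16.0% to 20.3% not uniquely aligned, so genes with near-identical copies may be undercounted. Groups and mouse numbers came from the labels. Of 39179 identifiers, 37607 matched a symbol in GENCODE M21.

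Low counts were removed with filterByExpr and libraries scaled by TMM. Groups were compared with edgeR 4.0.16 (R 4.3.3) by its quasi-likelihood test, which is two-sided. The diets of 1 time point shared a fit, and all 6 groups shared the fit for time and interactions. The Benjamini-Hochberg adjustment ran over all genes tested, with a threshold of 0.05. DESeq2 1.42.0 was an alternative, as were other scaling, filters, sample sets, a replicate block and leaving out mice. GC correction, by a loess curve of span 0.5 per library, and total counts were added after the data were examined. Correlations used log2 CPM with a prior count of 2. The gene tests were tested on simulated data.

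The members and the lists were chosen with earlier results of these data known. The text names the members, the called genes of each list or otherwise up to 2 with the smallest p-values in a comparison, the most abundant marker of a list, and the 10 genes most like the members. Some results on the wider lists are not reported here. The p-values measure the spread between mice of a group. Between 2 mice of a group, chi-square per degree of freedom was at least 24.5, so no 2 libraries of a group differed by sampling noise alone. This cannot tell a second library of the same mouse from another mouse, and pairs across groups were not compared.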

Additional observations from a re-analysis of the deposited data

Results flagged for a closer look

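Within each group of 5 mice, the highest and lowest value of each member were compared with the nearest other mouse relative to the range of the group. Of 60 such groups, 13 held a value past Dixon's 95% critical value of 0.71, which is set for 1 in 20 in a single test. The members varied together in the same mice, so these are not 60 separate tests. The share of all genes past this value was not computed, so the count is no result about the members. In 12 of the 13 the value belonged to a mouse numbered 1. For Smtn it was mouse 1 at 87.7 CPM in LO and 90.2 CPM in PF at 12 weeks, and at 92.8 CPM in LO, 53.3 CPM in PF and 90.7 CPM in SO at 32 weeks. For Cnn1 it was mouse 1 at 256 CPM in PF at 12 weeks, and at 236.5 CPM in PF and 254.5 CPM in SO at 32 weeks. For Des it was mouse 1 at 316 CPM in PF at 12 weeks. At 32 weeks it was also mouse 1 in SO for Myh11 at 911 CPM and Lmod1 at 44.2 CPM, and in PF for Tagln at 906 CPM. The 1 low value was Lmod1 in PF mouse 4 of 32 weeks at 22.8 CPM. What sets the mice numbered 1 apart was not tested.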

How the results depend on the processing

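Over 12 comparisons, 0 of 10 members were called under every alternative other than the GC offset. That offset, added after the data were examined, gave 3 in LO between 12 and 32 weeks, where all calls went from 448 to 3387; the cause was not tested. Of 3330 recomputed member values, 286 changed sign, 248 of them with mice left out, and 0 of these passed the threshold. With 1 mouse or 1 number left out, the log2 fold change of Cnn1 for LO against SO at 32 weeks ran from -0.24 to 0.11. Leaving out 1 mouse, calls over all genes ran from 47 (without LO mouse 3 of 12 weeks) to 1043 (without LO mouse 4 of 32 weeks) in LO and from 226 (without SO mouse 4 of 32 weeks) to 1556 (without SO mouse 1 of 32 weeks) in SO between time points. Between time points DESeq2 called 1089 genes in LO, 1494 in SO and 52 in PF, where edgeR called 448, 1073 and 5. For the diets DESeq2 called 225 (PF against SO) and 75 (PF against LO) at 12 weeks and 109, 85 and 6 at 32 weeks, where edgeR called 0. It called 0 members in each of these. Only the 2 groups compared in a fit gave 57 in LO. The replicate block changed no call of a member, with a median of -0.25 in LO between time points. Same-numbered mice correlated at 0.309 to 0.495 for number 1 but as low as -0.403 for others, so the numbers were not taken as pairs, and 9 of 30 mice, 6 of them numbered 1, matched best with their own number. Depth did not limit these genes; the spread between 5 mice did, with median SEs of 0.148 to 0.220 on the log2 scale. The calls of genes on the wider lists were compared between edgeR and DESeq2 only.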
